A study of Mus musculus with 8 samples.

Results

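Genes for making ribosomes were examined in an immortalized mouse brown adipocyte line after 18 h with the compound Z16078526. The set holds 42 named ribosome biogenesis and nucleolar factors, taken by gene symbol from the array's value table. Of these, 40 were measured among 16593 genes in all, and Wdr43 and Polr1b were not analysed here. All cells had been differentiated for 8 days. The 4 samples of the control group then received the vehicle DMSO, and the 4 treated samples received 10 µM Z16078526, each for 18 h. The purpose given by the submitters was to characterize the compound's effect on these cells. Total RNA was profiled by array, and the cells are 1 immortalized line. Whether the 4 samples of each group are separate cultures is not stated in the labels. The p-values therefore cover only the spread among these samples, and that spread may be technical.

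Ribosomes are assembled in the nucleolus. RNA polymerase I transcribes a long precursor RNA there, small nucleolar ribonucleoproteins (snoRNPs) modify it, and the small-subunit processome, a very large particle built on the nascent precursor, cuts out the RNA of the small ribosomal subunit. A separate and later set of factors matures the large subunit. The members were placed by these roles into 14 small-subunit factors, 16 large-subunit factors, 6 snoRNP proteins, 3 RNA polymerase I subunits, and a remaining 3 (Ncl, Npm1 and Rpp30).

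Levels below are log2 intensities. Their floor is 4, an intensity of 16 or less, and a log2 difference is treated minus DMSO. Between 13528 and 13564 of 25697 probes per array lay above the floor. Across genes, which are not independent replicates, Pearson's r between arrays was 0.9959 to 0.9966 among DMSO arrays, 0.9929 to 0.9952 among treated arrays and 0.9888 to 0.9925 from one group to the other. All 9 mature adipocyte markers measured were above the floor on all arrays. Of 8 brown adipocyte markers, 5 were above the floor on all arrays, while Prdm16 and Dio2 never were. Of the mature markers 2 rose and 1 fell, and of the brown markers 3 rose and 0 fell. Of 9 preadipocyte and fibroblast markers, 6 were above the floor on all arrays, Thy1, Dpp4 and Pi16 were at the floor, and Dcn and Col3a1 fell with treatment. Col3a1 was not called without any one of DMSO 1 to 4 or of treated 2 and 3 (adjusted p 0.0657 to 0.0823, and the range over all other settings was 0.00216 to 0.0823). The summed preadipocyte and fibroblast intensity was 5938 to 6741 in DMSO and 4642 to 5986 in treated samples, and the part of these marker shifts in the results below was not tested. None of 5 macrophage, 5 endothelial or 5 muscle markers was above the floor on all arrays. Ptprc, Itgam and Lyz2, Cdh5, Kdr and Tie1, and Myod1 and Ckm were at the floor throughout. Of the macrophage, endothelial and muscle markers, only the endothelial Tek was called, and it was lower. Tek lay just above the floor in DMSO, at 4.13 to 4.29, and at the floor on all treated arrays. The summed macrophage markers reached at most 49.3 in DMSO and 51.2 in treated samples, the endothelial ones 62.3 and 47.1, and the muscle ones 61.1 and 88.9.

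Among the listed members, small-subunit factors had more signal in treated cells, and large-subunit factors showed a mixed pattern. Of 6 snoRNP proteins 1 was called (16.7%), against 15.2% of all genes and 36.1% of those with a mean log2 of 7 or more. The 2 measured RNA polymerase I subunits are too few to give a pattern. Of the 40 members, 16 were called higher and 3 lower in treated cells at an adjusted p under 0.05 in limma. Over all genes, 15.2% were called, 7.97% higher and 7.19% lower. Bright genes are called more often. Among the 6210 genes with a mean log2 of 7 or more, 18.8% were called higher and 17.3% lower, and among the 34 members of that brightness 15 were higher (44.1%) and 3 lower (8.82%). The median log2 difference was 0.22 over the members and 0.00 over all genes (0.02 over the bright ones). The groups did not overlap in 23 members (57.5%), 19 of them higher in treated cells and 4 lower, where 19.8% of all genes had such groups. Among the bright genes the share was 44.9%, and among the 34 bright members it was 61.8%. Only 4 members were called with a change over 1.5-fold, Rrp8, Ftsj3, Noc3l and Nol11, all higher, against 2.83% of all genes higher and 2.5% lower. Of the 6210 bright genes, 338 were higher and 307 lower by that rule, and of the 34 bright members 3 were higher and 0 lower. In RNA of a whole culture, fewer cells of a type and less RNA per cell cannot be told apart.

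**Figure D1:**
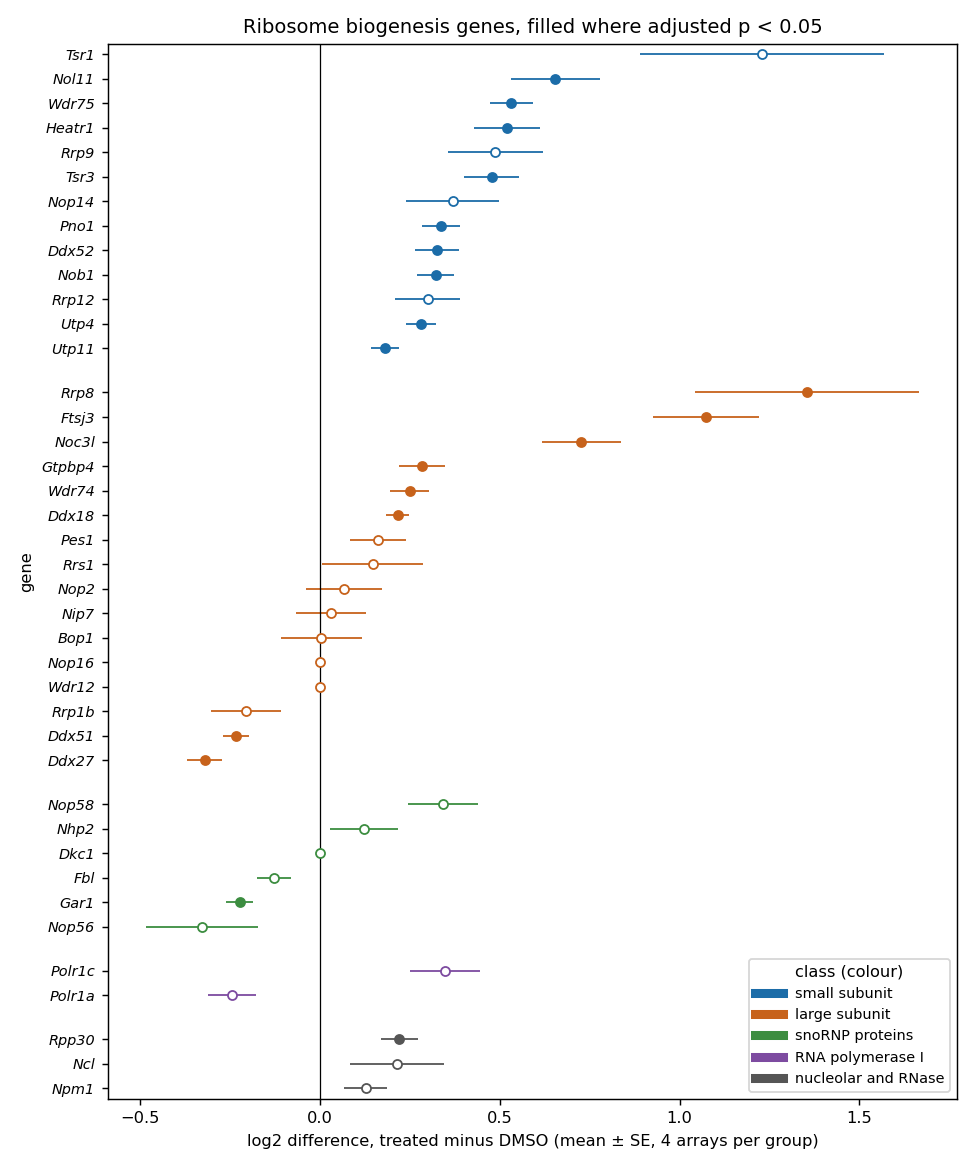
Log2 difference (treated minus DMSO, mean ± SE from limma, 4 arrays per group) of the 40 measured members by class, with filled points for an adjusted p under 0.05. All 13 small-subunit factors lie right of 0, from 0.18 for Utp11 to 1.23 for Tsr1, while the large-subunit factors run from -0.32 for Ddx27 to 1.35 for Rrp8.

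Of 13 measured small-subunit factors, 9 rose and 0 fell. The median log2 difference was 0.37. All 13 were higher at an unadjusted p under 0.05, none was lower, and the groups overlapped only for Nop14. At that p, 2249 of all 16593 genes were higher and 1920 lower. Of the 6210 with a mean log2 of 7 or more, 1838 were higher and 1627 lower, and 44.9% had groups that did not overlap. The 9 were the UtpA subunit genes Wdr75, Utp4, Heatr1 and Nol11, then Utp11 and Ddx52, and the late factors Pno1, Tsr3 and Nob1. When each array was left out in turn, 8 to 10 were called higher and 0 lower.

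UtpA is the complex that binds the nascent precursor RNA first, and in human cells its subunits are needed for transcription of the ribosomal genes as well. Of its 5 subunit genes measured, 4 were called higher, all of them members. The fifth, Utp15, is not a member, was named after its value was seen, and was dim, at 4.72, 4.89, 4.94 and 4.94 in DMSO and 5.10, 5.44, 5.24 and 4.00 in treated samples, with overlap through treated 4 at the floor (0.07 ± 0.31, adjusted p = 1). Wdr75, a WD-repeat subunit, had log2 intensities of 10.79, 10.82, 10.66 and 10.65 in DMSO 1 to 4 and 11.16, 11.24, 11.38 and 11.26 in treated 1 to 4. Every treated array was above every DMSO array, a rise of 1.45-fold (0.53 ± 0.06, a log2 difference with its SE, as in all such brackets below; limma adjusted p = 0.00245, n = 4). A dimmer probe of Wdr75 gave 0.45.

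Heatr1, the largest UtpA protein and made of HEAT repeats, was at 9.85, 9.90, 9.87 and 9.91 in DMSO and at 10.16, 10.37, 10.62 and 10.46 in treated samples. The DMSO arrays lay within a narrow band and all treated arrays above it, a rise of 1.43-fold (0.52 ± 0.09, adjusted p = 0.0122). A second Heatr1 probe with signal gave a log2 difference of 0.94, and its other probes were at the floor. Nol11, a UtpA subunit of animals, was at 8.49, 8.73, 8.46 and 8.20 in DMSO and at 8.96, 9.06, 9.18 and 9.29 in treated samples. It rose 1.57-fold with no overlap (0.65 ± 0.12, adjusted p = 0.0154). Utp4, whose human form is mutated in a childhood liver cirrhosis, was at 10.82, 10.78, 10.78 and 10.77 in DMSO and at 10.99, 11.02, 11.09 and 11.18 in treated samples. Its rise was small, 1.21-fold, but clear of the DMSO spread on all 4 arrays (0.28 ± 0.04, adjusted p = 0.00668).

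The 100 bases before the annotated start of the 4 UtpA genes that rose are shown so that they can be compared. They are RefSeq promoter windows of GRCm38.p6, read 5′ to 3′ on the gene's strand, with capitals for CACGTG (the E-box bound by MYC and related factors) and for CCGGAAG or its reverse complement CTTCCGG (a core of ETS factor sites). Heatr1 is at chr13:12395275-12395374 (plus strand), Nol11 at chr11:107189382-107189481 (minus), Utp4 at chr8:106893540-106893639 (plus) and Wdr75 at chr1:45795066-45795165 (plus).
Heatr1: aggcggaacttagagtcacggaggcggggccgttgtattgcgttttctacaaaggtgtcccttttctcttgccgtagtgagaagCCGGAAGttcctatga
Nol11: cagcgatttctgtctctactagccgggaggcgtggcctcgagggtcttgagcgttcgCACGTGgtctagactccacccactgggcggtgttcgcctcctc
Utp4: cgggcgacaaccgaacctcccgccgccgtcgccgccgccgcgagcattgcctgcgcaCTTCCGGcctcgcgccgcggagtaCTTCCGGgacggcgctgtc
Wdr75: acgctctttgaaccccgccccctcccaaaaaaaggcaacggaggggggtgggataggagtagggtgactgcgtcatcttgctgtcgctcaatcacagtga

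These stretches share no single motif of those searched. Nol11 holds 1 CACGTG, Heatr1 holds 1 CCGGAAG, Utp4 holds 2 copies of its reverse complement, and Wdr75 holds neither.

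Pno1 and Nob1 act as partners late in small-subunit maturation: Nob1 is the nuclease that makes the final cut at the end of the small-subunit RNA, and Pno1 binds beside that site. Pno1 was at 10.80, 10.96, 10.85 and 10.76 in DMSO and at 11.20, 11.26, 11.17 and 11.10 in treated samples. It rose 1.26-fold with no overlap (0.34 ± 0.05, adjusted p = 0.0081). Nob1 was at 9.68, 9.63, 9.65 and 9.83 in DMSO and at 9.95, 10.01, 10.06 and 10.06 in treated samples. It rose by nearly the same factor, 1.25-fold (0.32 ± 0.05, adjusted p = 0.0087). Its second probe gave 0.36 and was not called when all probes were fitted singly in limma (adjusted p = 0.169).

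Tsr3, an enzyme that adds an aminocarboxypropyl group to the small-subunit RNA, had 3 probes of similar brightness. The tested probe was at 10.56, 10.42, 10.60 and 10.69 in DMSO and at 10.91, 11.08, 11.02 and 11.17 in treated samples, a rise of 1.39-fold with no overlap (0.48 ± 0.08, adjusted p = 0.00854). The other probes of Tsr3 gave log2 differences of 0.34 and 0.43. Ddx52, a DEAD-box RNA helicase, was at 10.62, 10.59, 10.67 and 10.56 in DMSO and at 11.01, 10.96, 10.76 and 11.01 in treated samples, with treated 3 the lowest but still above DMSO. It rose 1.25-fold (0.33 ± 0.06, adjusted p = 0.0147). Utp11, a processome subunit, had the smallest rise of the class, 1.13-fold (0.18 ± 0.04, adjusted p = 0.023), from 12.41, 12.42, 12.31 and 12.36 in DMSO to 12.52, 12.49, 12.58 and 12.62. Its groups did not overlap, but it was not called without DMSO 3 (adjusted p = 0.0556), DMSO 4 (0.0666) or treated 3 (0.0598), and the range over all other settings was 0.0107 to 0.142.

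The remaining 4 small-subunit factors did not pass. Rrp9, the protein specific to the U3 snoRNP that guides processome assembly, was at 7.94 to 8.36 in DMSO and 8.41 to 8.89 in treated samples (log2 difference 0.49 ± 0.13, adjusted p = 0.0546). Without treated 1 it was called at 0.58 (adjusted p = 0.0268, and 0.0034 to 0.127 over all other settings). Tsr1, a late factor that resembles translational GTPases, was dim. It was at 5.22, 5.29, 4.00 and 4.98 in DMSO, the third array being at the floor, and at 5.58, 6.15, 6.42 and 6.25 in treated samples (1.23 ± 0.34, adjusted p = 0.0586). Much of its difference depends on the floor: it was 0.47 with a floor of 50 (adjusted p = 0.14) and 0.90 with a pseudocount of 16, where it was called (0.0436). It was also called with robust variance (0.00191) and with genes at the floor left out (0.017), in a range of 0.00191 to 0.214 over all other settings. Rrp12, a factor for maturation and export of the small subunit, was at 8.63 to 9.01 in DMSO and 9.08 to 9.28 in treated samples (0.30 ± 0.09, adjusted p = 0.0777). Nop14, which works with the methyltransferase Emg1, was at 7.74 to 8.31 and 8.30 to 8.59, with overlap (0.37 ± 0.13, adjusted p = 0.125).

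**Figure D2:**
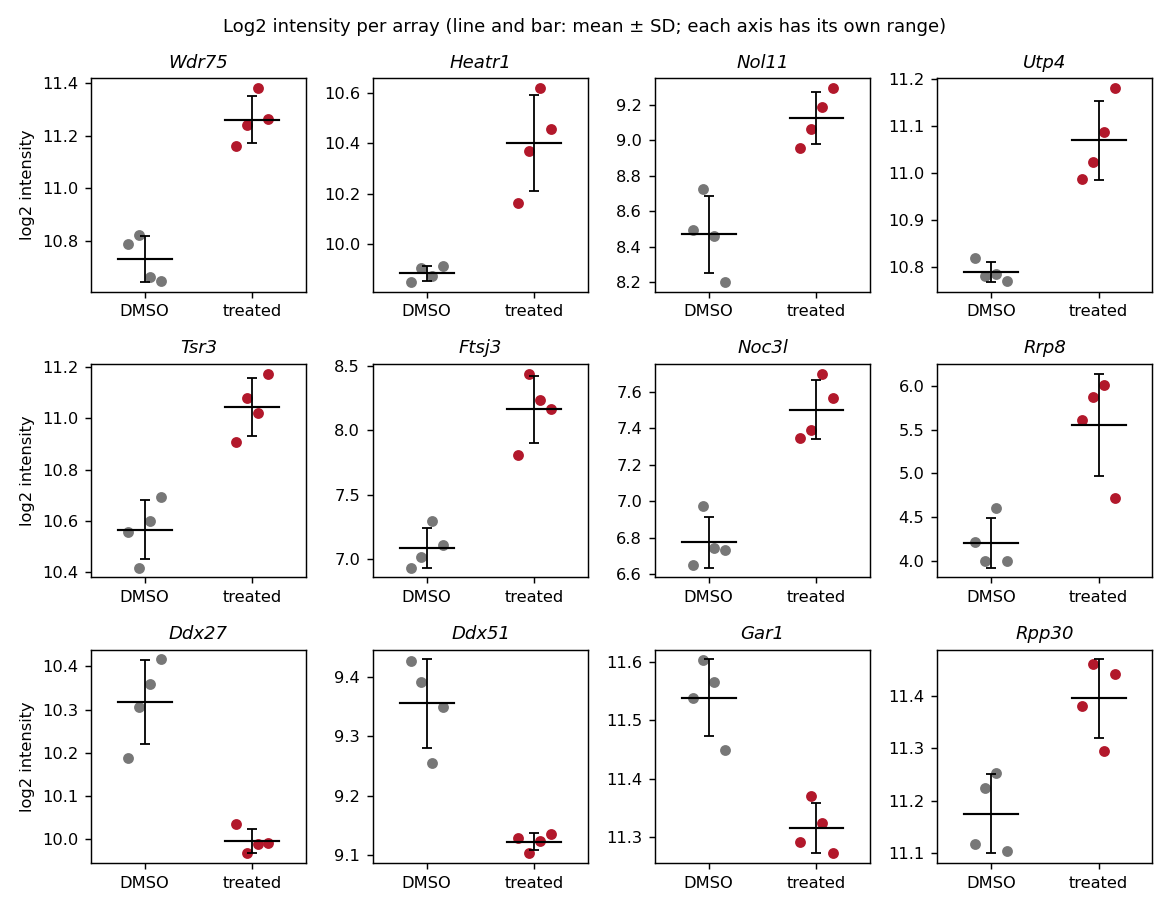
Log2 intensity of 12 members on each array, with DMSO in grey, treated in red, and line and bar for the group mean ± SD (n = 4). The groups are separate in all 12 panels, with treated lower for Ddx27, Ddx51 and Gar1, and each vertical axis has its own range.

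Large-subunit factors went both ways. Of 16 measured, 6 rose (Ftsj3, Noc3l, Rrp8, Gtpbp4, Wdr74 and Ddx18), 2 fell (Ddx27 and Ddx51) and 8 did not pass. The shares were 37.5% higher and 12.5% lower, against 18.8% and 17.3% of genes with a mean log2 of 7 or more. The median log2 difference of the 14 above the floor was 0.15. When each array was left out, 3 to 5 were called higher, with 3 without DMSO 2, and both decreases were called each time. The difference between the classes was not tested.

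Ftsj3, the counterpart of a yeast methyltransferase of the large-subunit RNA, was at 6.93, 7.02, 7.29 and 7.11 in DMSO and at 7.81, 8.44, 8.23 and 8.17 in treated samples. The lowest treated array was well above the highest DMSO array, a rise of 2.11-fold (1.07 ± 0.15, adjusted p = 0.00491). Noc3l encodes a nucleolar protein that in mouse fat cell precursors is induced early in differentiation, and in yeast its counterpart moves large-subunit precursors out of the nucleolus. It was at 6.65, 6.98, 6.75 and 6.73 in DMSO and at 7.35, 7.39, 7.70 and 7.57 in treated samples, a rise of 1.65-fold with no overlap (0.73 ± 0.11, adjusted p = 0.00707).

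Rrp8, which encodes a methyltransferase of the large-subunit RNA, had the largest log2 difference of all members, at very low signal. It was at 4.21, 4.00, 4.60 and 4.00 in DMSO, where DMSO 2 and 4 lay at the floor, and at 5.62, 5.88, 6.02 and 4.72 in treated samples. The groups were separate, but the difference of 1.35 ± 0.31 (2.56-fold, adjusted p = 0.031) is measured largely against the floor. With a floor of 50 it was 0.15 and not called (adjusted p = 0.391). Rrp8 also lost its call without DMSO 1 (adjusted p = 0.0817), DMSO 2 (0.0836), DMSO 4 (0.0857), treated 1 (0.07), treated 2 (0.0871) or treated 3 (0.0692), and the range over all other settings was 0.00262 to 0.391.

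Gtpbp4, a GTPase of large-subunit precursors, was at 10.95, 10.89, 10.84 and 10.87 in DMSO and at 11.04, 11.09, 11.30 and 11.24 in treated samples, a rise of 1.22-fold (0.28 ± 0.06, adjusted p = 0.0286). Its groups were separate by a small margin, and it was not called without DMSO 1 (adjusted p = 0.0537), DMSO 2 (0.0723), DMSO 3 (0.0825), DMSO 4 (0.0781) or treated 4 (0.0729), in a range of 0.00366 to 0.146 over all other settings. Wdr74, a WD-repeat factor, was at 10.08, 10.16, 10.23 and 10.34 in DMSO and at 10.47, 10.47, 10.42 and 10.43 in treated samples. The treated arrays lay close together just above the highest DMSO array, a rise of 1.19-fold (0.25 ± 0.05, adjusted p = 0.0254). Wdr74 was not called without DMSO 2, DMSO 3 or any one treated array (adjusted p 0.0518 to 0.0742, and 0.00922 to 0.117 over all other settings).

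DEAD-box RNA helicases of the large-subunit pathway moved in opposite directions. Ddx18 was at 10.90, 11.00, 10.97 and 10.98 in DMSO and at 11.13, 11.16, 11.24 and 11.18 in treated samples, a small rise of 1.16-fold with no overlap (0.22 ± 0.03, adjusted p = 0.00656). Ddx27 was at 10.19, 10.31, 10.36 and 10.42 in DMSO and at 10.04, 9.97, 9.99 and 9.99 in treated samples. All treated arrays were below all DMSO arrays, and Ddx27 was 1.25-fold lower (-0.32 ± 0.05, adjusted p = 0.007). Ddx51 was at 9.43, 9.39, 9.25 and 9.35 in DMSO and at 9.13, 9.10, 9.12 and 9.13 in treated samples, 1.18-fold lower with no overlap (-0.23 ± 0.04, adjusted p = 0.00811). The call of Ddx51 ended with robust variance (adjusted p = 0.117) and with the mean of its 3 probes, of which the others lay at or near the floor (log2 difference -0.09, adjusted p = 0.495), in a range of 0.00287 to 0.495 over all other settings.

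Pes1, Bop1 and Wdr12 form the PeBoW complex, which is required for processing of the large-subunit RNA, and none of its genes passed. Pes1 was at 9.75 to 10.03 in DMSO and 9.89 to 10.10 in treated samples (log2 difference 0.16 ± 0.08, adjusted p = 0.288). Bop1 was at 8.58 to 8.89 and 8.57 to 8.97, with the treated range around the DMSO range (0.0041 ± 0.11, adjusted p = 1). Its sign turned without DMSO 1 (-0.04), DMSO 2 (-0.03) or treated 3 (-0.08). Wdr12 lay at the floor on all 8 arrays, as did Nop16, another large-subunit factor.

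Nop2, a methyltransferase of the large-subunit RNA, was at 8.76 to 8.90 in DMSO and 8.58 to 9.02 in treated samples, where treated 4 alone lay below DMSO (0.07 ± 0.10, adjusted p = 0.988). Without treated 4 it was called at 0.17 (adjusted p = 0.0466, and 0.0466 to 1 over all other settings). Nip7, a pre-ribosomal RNA binding protein, was at 10.59 to 10.67 in DMSO and spread around that range in treated samples, from 10.38 to 10.86 (0.03 ± 0.10, adjusted p = 1), and its sign turned without treated 1 (-0.04). Rrp1b, a nucleolar partner of a protein phosphatase, was at 8.24 to 8.48 and 7.96 to 8.35 (-0.21 ± 0.10, adjusted p = 0.268). Rrs1, which acts in early large-subunit assembly, was above the floor on treated 2 alone, at 4.59.

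The snoRNP proteins showed 0 rises and 1 decrease among 6 measured, a called share of 16.7%. Over all genes 15.2% were called, and over those with a mean log2 of 7 or more 36.1%. At an unadjusted p under 0.05, 1 snoRNP gene was higher and 2 were lower, where 2249 and 1920 of all 16593 genes were. Without DMSO 2, Nop58 was called higher. Gar1 was the member that fell. It is a subunit of the box H/ACA particles, which convert uridine to pseudouridine in ribosomal RNA and include telomerase. It was at 11.54, 11.60, 11.57 and 11.45 in DMSO and at 11.29, 11.37, 11.33 and 11.27 in treated samples, 1.17-fold lower with no overlap (-0.22 ± 0.04, adjusted p = 0.0102). Its partner Nhp2 was at 11.37 to 11.53 in DMSO and 11.41 to 11.77 in treated samples, with overlap (0.12 ± 0.09, adjusted p = 0.628). Dkc1, the pseudouridine synthase itself, lay at the floor on all 8 arrays by its 1 probe.

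The box C/D particles carry the methyltransferase fibrillarin (Fbl) on a scaffold of Nop56 and Nop58. Fbl was at 10.94 to 11.12 in DMSO and 10.86 to 10.98 in treated samples (-0.13 ± 0.05, adjusted p = 0.148). Nop56 was at 10.01, 10.21, 10.11 and 10.24 in DMSO and at 10.12, 9.97, 9.41 and 9.76 in treated samples, a wide spread in which treated 3 was the lowest (-0.33 ± 0.16, adjusted p = 0.271). Nop58 was at 10.90, 11.08, 10.80 and 10.65 in DMSO and at 11.25, 11.23, 11.26 and 11.05 in treated samples. Its groups overlapped through DMSO 2 and treated 4 (0.34 ± 0.10, adjusted p = 0.0655), and without DMSO 2 it was called at 0.41 (adjusted p = 0.0283, and 0.00311 to 0.162 over all other settings). The estimates for these scaffold partners thus had opposite signs, and neither passed.

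Of the 2 measured RNA polymerase I subunits, 0 were called by limma in either direction, and at an unadjusted p under 0.05, 1 was higher and 1 lower. With 2 genes, these counts cannot be set against a share of all genes. Polr1a, the largest and catalytic subunit, was at 10.36, 10.32, 10.27 and 10.39 in DMSO and at 9.92, 10.09, 10.23 and 10.12 in treated samples. Its groups did not overlap (-0.24 ± 0.07, adjusted p = 0.0572). Its dimmer probes gave -0.45 and -0.18. Polr1a was called without treated 1 (-0.19, adjusted p = 0.0466) and without treated 3 (-0.29, 0.0285), in a range of 0.0154 to 0.273 over all other settings. Polr1c, a subunit shared with RNA polymerase III, was at 10.49, 10.73, 10.45 and 10.62 in DMSO and at 10.73, 11.05, 10.85 and 11.05 in treated samples (0.35 ± 0.10, adjusted p = 0.063). Its groups met at treated 1, and without that array it was called (0.41, adjusted p = 0.0368, and 0.00355 to 0.158 over all other settings).

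Rpp30 is a protein subunit of RNase P, which trims transfer RNA, and of RNase MRP, which cuts the ribosomal precursor. It was at 11.12, 11.22, 11.25 and 11.10 in DMSO and at 11.38, 11.46, 11.30 and 11.44 in treated samples, a rise of 1.17-fold with no overlap (0.22 ± 0.05, adjusted p = 0.0317). It was not called without DMSO 1, 2 or 4 or treated 1, 2 or 4 (adjusted p 0.0546 to 0.0886, and 0.00975 to 0.138 over all other settings), and the mean with its second probe, at the floor, gave 0.11. The nucleolar proteins nucleolin and nucleophosmin did not pass. Ncl was at 8.39 to 8.87 in DMSO and 8.62 to 9.03 in treated samples (0.21 ± 0.13, adjusted p = 0.438), and its second probe gave 0.30. Npm1, the gene for nucleophosmin, was at 13.95 to 14.14 and 14.11 to 14.29 (0.13 ± 0.06, adjusted p = 0.276).

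Of the 40 members, 28 had 1 probe and 12 had more. Among their 20 other probes, 8 probes of 7 genes had a mean log2 of 7 or more, and 7 of the 8 had the sign of the tested probe. The exception was Rrp1b, at 0.04 for a dimmer probe. Over the 34 members above the floor on all arrays, the median SD was 0.0909 in DMSO and 0.115 in treated samples.

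**Figure D3:**
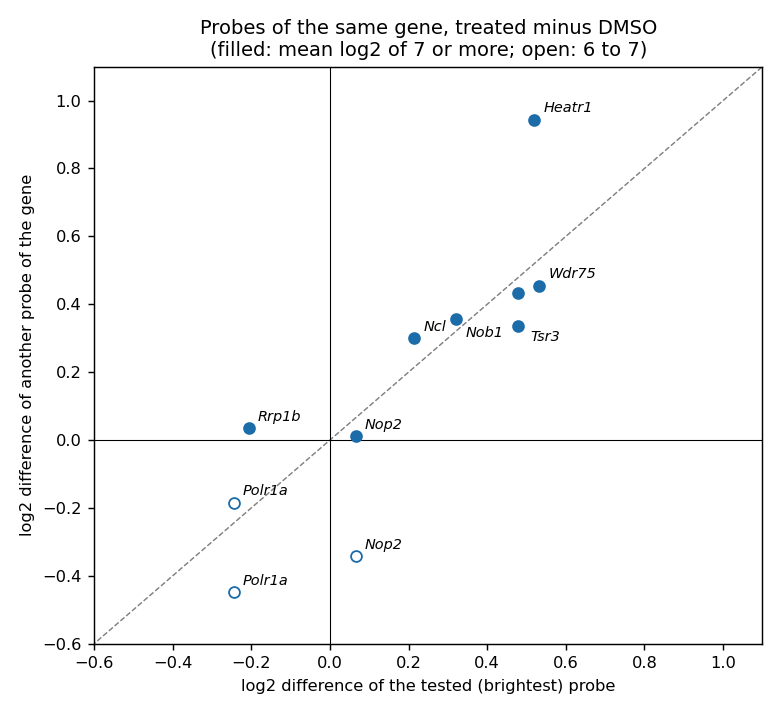
Log2 difference (treated minus DMSO) of other probes of a member, on the vertical axis, against that of its tested probe, with the dashed line for equal values, filled points for a mean log2 of 7 or more and open points for 6 to 7. Heatr1, Wdr75, Tsr3, Nob1 and Ncl lie in the upper right, positive on both axes, and Rrp1b and a dim probe of Nop2 change sign.

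Lists of further genes of the same steps were counted in the same fit. Of 38 other small-subunit factors, 9 rose (23.7%) and 1 fell (2.63%), with a median log2 difference of 0.11. Over all genes 7.97% rose and 7.19% fell, and over those with a mean log2 of 7 or more 18.8% and 17.3%. The 4 with the smallest p were Ngdn (1.18-fold), the export factor gene Ltv1 (1.41-fold), the kinase gene Riok1 (1.31-fold) and the nuclease-fold gene Fcf1 (1.35-fold). Utp6 fell (log2 difference -0.26, adjusted p = 0.0305), named after its value was seen, and it lost its call without any one array but treated 2 and 4 (adjusted p 0.0501 to 0.0855, in a range of 0.0128 to 0.125 over all other settings).

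Of 38 other large-subunit factors, 7 rose (18.4%) and 5 fell (13.2%), with a median of 0.02. These shares are near the 18.8% and 17.3% of genes with a mean log2 of 7 or more. Nmd3, the export adaptor of the large subunit, rose 1.68-fold (0.75 ± 0.08, adjusted p = 0.00184), and Rpf1 (1.18-fold), the SUMO protease gene Senp3 (1.19-fold) and the ATPase gene Nvl (1.33-fold) followed by p. The 5 that fell, Ddx54, Brix1, Sdad1, Gnl3l and Ddx24, were named after their values were seen. Their count was 0 to 3 when an array was left out, being 0 without DMSO 4. When probes of a gene were averaged, Rpf1 (0.28, adjusted p = 0.0763, in a range of 0.00247 to 0.0763 over all other settings), Nvl (0.30, 0.369, in a range of 0.001 to 0.369), Brix1 (-0.26, 0.143, in a range of 0.00234 to 0.143), Gnl3l (-0.13, 0.79, in a range of 0.00458 to 0.79) and Ddx24 (-0.07, 0.768, in a range of 0.00777 to 0.768) were not called.

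Of 12 other snoRNP and assembly proteins, only the gene for the assembly ATPase Ruvbl2 rose (1.25-fold, adjusted p = 0.000662) and 0 fell. At an unadjusted p under 0.05 there were 2 higher and 1 lower. Of 12 other RNA polymerase I genes 0 rose by limma, with 2 higher and 2 lower at an unadjusted p under 0.05, and Cd3eap, a subunit gene, fell (1.29-fold lower, adjusted p = 0.0139). Each of these lists had 8.33% called, against 15.2% of all genes and 36.1% of those with a mean log2 of 7 or more. Over the 13 other settings with all arrays, the snoRNP list had 1 to 2 called higher and 0 to 1 lower. The RNA polymerase I list had 0 to 3 called higher and 0 to 2 lower. At the unadjusted p, 2249 of 16593 genes were higher and 1920 lower.

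A further list held 22 other genes for RNase P, the exosome (the complex that trims ribosomal RNA ends) and partners of the exosome such as Mtrex. Of these, 8 rose and 1 fell, with a median of 0.22. These are 36.4% and 4.55%, against 7.97% and 7.19% of all genes and 18.8% and 17.3% of those with a mean log2 of 7 or more. Rpp14, an RNase P subunit gene, rose 1.38-fold (0.47 ± 0.02, adjusted p = 0.000416). Mtrex, which encodes the helicase that feeds RNA to the exosome, rose 1.67-fold (0.74 ± 0.06, adjusted p = 0.00082), and the exosome genes Exosc8 and Exosc10 rose 1.46-fold and 1.39-fold. Exosc4 was 1.24-fold lower (adjusted p = 0.0169), named after its value was seen.

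Few genes of the ribosome's own proteins passed in the main fit, 6.78%. The share was 15.2% over all genes and 36.1% over those with a mean log2 of 7 or more. Of 79 cytosolic ribosomal protein genes listed, 59 were measured. Of these, 2 rose (Rps3a1 at 1.37-fold and Rpl4 at 1.22-fold) and 2 fell (Rps15, 1.13-fold lower, and Rps9, 1.21-fold lower). Over the 13 other settings with all arrays, 1 to 7 were called higher and 1 to 8 lower. Many of these genes have near-identical pseudogenes, so their probes may read more than 1 locus. Rpl4 lost its call without any one array but DMSO 2 and treated 3 (adjusted p 0.0587 to 0.0739, in a range of 0.00383 to 0.13 over all other settings). Rps9 lost its call without DMSO 2, 3 or 4 or treated 2 or 4 (0.0524 to 0.0623), and the mean of its probes gave -0.0061 (adjusted p = 1, in a range of 0.000514 to 1).

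Targets of p53, the factor that is stabilised when ribosome assembly is blocked, were called at 16.7%. The share was 15.2% over all genes and 36.1% over those with a mean log2 of 7 or more. Of 18 measured, 15 did not pass, Trp53inp1 rose 1.28-fold (adjusted p = 0.000582), and Cdkn1a (1.28-fold lower, adjusted p = 0.0196) and Zmat3 (1.23-fold lower, 0.0198) fell. Cdkn1a lost its call without DMSO 1, 2 or 3 or treated 2 (adjusted p 0.0545 to 0.0561, in a range of 0.000179 to 0.0623 over all other settings), and Zmat3 without any one DMSO array but DMSO 4 or without treated 2 or 4 (0.0536 to 0.0604, in a range of 0.00761 to 0.0604). In the network of MYC, a transcription factor of ribosome genes, 16.7% were called, against the same 2 shares. By limma 0 of 12 rose, with 3 higher at an unadjusted p under 0.05, where 2249 of 16593 genes were. The 2 that fell were the partner gene Max (log2 difference -0.27, adjusted p = 0.00494) and Mxd4 (1.34-fold lower, 0.0473). Mxd4 lost its call without any one array but DMSO 2 and treated 1 (adjusted p 0.101 to 0.12, in a range of 0.00502 to 0.16 over all other settings), and Max with the mean of its probes (0.341, in a range of 0.00184 to 0.341). Myc itself was at 4.03 to 5.44 in DMSO, and 3 of 4 treated arrays lay at the floor (-0.48 ± 0.34, adjusted p = 0.546).

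**Figure D4:**
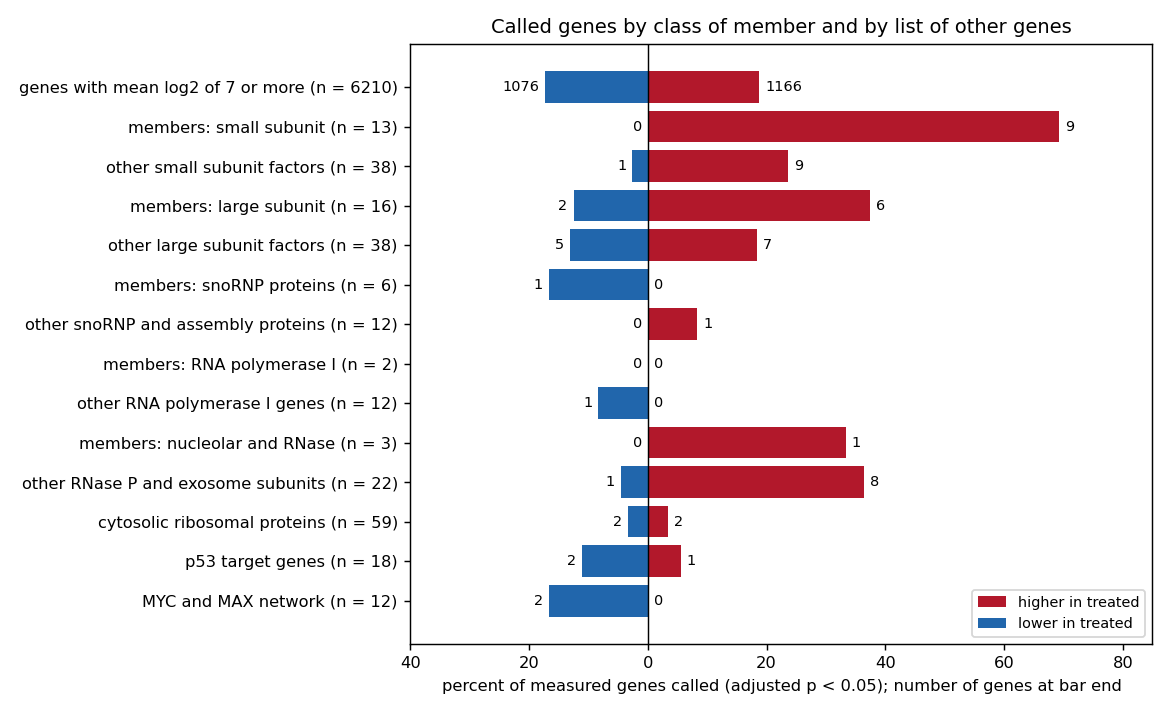
Percent of measured genes called higher (red, to the right) and lower (blue, to the left) in treated cells, by class of member, by list of other genes and for the 6210 genes with a mean log2 of 7 or more, with gene numbers at the bar ends. Small-subunit members have 9 of 13 called higher and 0 lower, and cytosolic ribosomal proteins 2 and 2 of 59.

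Promoter windows of RefSeq (GRCm38.p6, from 250 bases before to 50 after the annotated start) were found for 33 of the 40 measured members. CACGTG lay in 6 of them (18.2%), against 8.09% of 27025 genes with a window and 9.68% of the 13336 of these on the array. It was present in 3 of 14 members called higher, 0 of 3 called lower and 3 of 16 not called. CCGGAAG, on either strand, lay in 11 (33.3%, against 9.93% and 13.9%), in 4 of 14 called higher, 2 of 3 called lower and 5 of 16 not called. ATTGG, the reverse complement of the CCAAT box, lay in 12 (36.4%, against 41.1% and 42.5%), TATAAA in 3 (9.09%, against 15.7% and 14.3%), and the palindromic site of the factor NRF1 in Pno1 alone (3.03%, against 1.07% and 1.59%). All motifs were searched on both strands, and a gene counted once over its windows. A match is a description of the letters and not a bound site, and base composition was not matched.

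The other members with CACGTG are shown by 30 bases around it, with the motif in capitals, to set members that rose (Utp4 and Pno1) beside those that did not pass (Tsr1, Nop2 and Pes1). They lie at chr8:106893643-106893672 (plus strand), chr11:17211540-17211569 (minus), chr11:74898092-74898121 (plus), chr6:125131811-125131840 (plus) and chr11:3963965-3963994 (plus), in the order listed.
Utp4: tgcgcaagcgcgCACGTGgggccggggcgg
Pno1: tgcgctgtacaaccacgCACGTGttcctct
Tsr1: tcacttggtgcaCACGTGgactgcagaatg
Nop2: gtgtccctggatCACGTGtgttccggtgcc
Pes1: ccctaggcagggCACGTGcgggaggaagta

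For CCGGAAG the same display sets members that rose (Noc3l and Wdr74) beside those that fell (Ddx27 and Gar1). These lie at chr19:38819194-38819223 (minus), chr19:8735801-8735830 (plus), chr2:167015300-167015329 (plus) and chr3:129831421-129831450 (minus), in the order listed, with the motif or its reverse complement in capitals.
Noc3l: gctgaaagcgtCTTCCGGtttgggaaaggt
Wdr74: gtagtggcgcgCCGGAAGtgcaagccacgg
Ddx27: actcgctacgtCCGGAAGtggctgcttctt
Gar1: gcgccgccacaCTTCCGGaaacgtcgcgta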

How the data were processed

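Total RNA of 8 samples, 4 of each group, was measured on 1-colour Illumina-type arrays. The table the authors deposited holds intensities on a linear scale, 1 column per array. Per the submitters' processing notes GenomeStudio was used, with no version or settings stated. From the values, the deposited intensities were background-subtracted (about 28.3% of them lay below 0) and normalized between arrays, since the upper quartile (308) and the maximum were equal on all 8. The depth of an array has no count, and the number of arrays limits the precision.

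Of 25697 probes, 23978 had 1 gene symbol in the platform annotation and 1719 had none that could be used. Intensities under 16 were set to 16 and values taken to log2, so changes near the floor are understated. The probe with the highest mean intensity stood for a gene, giving 16593 genes, 5504 of them at the floor on all arrays. The fit across all genes used limma 3.58.1 (R 4.3.3) with a variance trend and Benjamini-Hochberg adjustment over all genes, and calls were made where the adjusted p was under 0.05. The fit was tested on simulated data. Tables were made with Python 3.11.15 and pandas 2.3.3.

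The members and the gene lists were chosen with earlier results of these data known, so their counts are descriptions. Values of all members are given. For other lists, up to 4 called genes with the smallest p are named, or all called genes where there are 5 or fewer. The alternatives were 13 other settings over all arrays (scaling, floor, pseudocount, filters on dim genes, variance model, array weights, replicate block and choice of probe) and leaving out each of 8 arrays. Promoter sequences are RefSeq's, on GRCm38.p6.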

Additional observations from a re-analysis of the deposited data

Results flagged for a closer look

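In 2 of 73 groups of 4 arrays, 1 array stood apart from the other 3 by more than Dixon's critical share of the group's range, which chance gives in about 1 in 20 groups. For Rrs1 in treated samples the gap was 1 of the range, since treated 2 was at a log2 intensity of 4.59 and the others at the floor. For Nop58 in treated samples the gap was 0.882, with treated 4 at 11.05 and the others at 11.23 to 11.26.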

How the results depend on the processing

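Of the 19 called members, 14 were called whenever an array was left out, 13 in each of the 21 settings but the replicate block, and 7 in all of them. Median centring changed no value. Same-numbered deviations from the group means correlated at -0.104, 0.0916, -0.225 and 0.212 over 6210 genes. Those of different numbers ran from -0.251 to 0.222. With only 4 same-numbered pairs, these values cannot decide whether the replicate numbers pair the arrays. Among the 12 of the 19 calls that the block ended were Heatr1 (adjusted p = 0.0585), Nol11 (0.11) and Utp4 (0.0627). Ddx52 (0.1055), Noc3l (0.061) and Ddx27 (0.0635) also lost their calls there. The block added 3 (Rrp9, Polr1c and Fbl). With it, 1123 genes were called against 2516, with 8 members higher: small subunit 5, large subunit 2 (0 lower), snoRNP 2 lower, RNA polymerase I 1 higher and nucleolar 0. Leaving out genes with a mean log2 under 7 gave 5 members lower, snoRNP 1 higher and 2 lower, and RNA polymerase I 1 higher and 1 lower. Leaving out genes at the floor gave snoRNP 1 higher and RNA polymerase I 1 higher and 1 lower. Robust variance gave large subunit 1 lower, snoRNP 1 higher and RNA polymerase I 1 higher. Array weights gave RNA polymerase I 1 higher and 1 lower, a pseudocount of 16 gave it 1 lower, and the mean of a gene's probes gave large subunit 1 lower. With each array left out, the calls were 1774 to 2465 over all genes, 12 to 15 members higher and 3 to 4 lower, small subunit 8 to 10 higher, large subunit 3 to 5 higher and 2 to 2 lower, snoRNP 0 to 1 higher, RNA polymerase I 0 to 1 higher and 0 to 1 lower, and nucleolar 0 to 1 higher. The members' median log2 difference was 0.198 to 0.245. Signs turned only for genes not called: Bop1 with array weights (-0.0021) and without DMSO 1 (-0.0371), DMSO 2 (-0.0334) or treated 3 (-0.0838; left-out range up to 0.0664), Nop2 with the mean of its probes (-0.0879) and Nip7 without treated 1 (-0.0365; left-out range up to 0.123). Where fewer genes are tested or fewer arrays used, the adjustment and the spread change by construction, and the cause of the other changes was not tested. Signals near the floor, as for Rrp8 and Tsr1, limit precision.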

Other observations

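Genes named Ddx, which encode DEAD-box RNA helicases of many RNA steps, were counted as a family after their values had been seen. Of 27 measured, 6 rose (22.2%), 6 fell (22.2%) and 15 did not pass. Over all genes 7.97% rose and 7.19% fell. Among genes with a mean log2 of 7 or more, the shares were nearer, at 18.8% and 17.3%. Outside the 4 members, Ddx50 (1.32-fold, adjusted p = 0.000426), Ddx1 (1.22-fold, 0.0146), Ddx20 (1.23-fold, 0.0406) and Ddx3x (1.66-fold, 0.0452) rose. Ddx39b (1.21-fold lower, 0.00694), Ddx17 (1.09-fold lower, 0.0155), Ddx54 and Ddx24 fell. Of those that did not pass, Ddx5 had the largest difference of the family (-1.36 ± 0.45, adjusted p = 0.104). Ddx21, a helicase of ribosomal RNA transcription and processing, had a log2 difference of 0.41 ± 0.17 (adjusted p = 0.183).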
